A study of Mus musculus with 4 samples.

Results

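The 10 genes described here write, keep, remove or protect DNA methylation: the maintenance pair Dnmt1 and Uhrf1, the de novo group Dnmt3a, Dnmt3b and Dnmt3l, the erasers Tet1, Tet2, Tet3 and Tdg, and the imprint guard Zfp57. They were chosen by gene symbol for these roles from 55401 genes in the table, and all 10 were found once and were among the 15580 genes with enough counts to be tested. RNA-seq was performed on mouse embryonic stem cells (mESCs) of the line E14, with 2 WT libraries and 2 libraries of Haspin-KO cells, which lack a working Haspin kinase. Haspin phosphorylates histone H3 at threonine 3 during mitosis. All libraries came from cells grown in knockout-DMEM with serum, Lif and 2i, the latter a pair of inhibitors that block MEK and GSK3, and no further treatment was given. Haspin-KO cells were made by CRISPR/Cas9 with 2 guide RNAs, and single clones without H3T3ph were kept. Each Haspin-KO line is therefore 1 clone, and the sample labels give neither the line of each library nor whether the 2 libraries of a genotype were separate cultures. The spread behind the p-values is then that between these libraries, which may be technical. The main test also borrows variance from the other genes, so a gene's SE can be smaller than its own libraries would give. According to the methods, passage was on mouse embryonic fibroblasts (feeders) and assays used gelatin, and the surface of the cells taken for RNA is not named.

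In mammals, methyl groups sit mostly on the cytosine of CpG pairs. DNMT3A and DNMT3B place them on unmodified DNA, DNMT1 copies them to the new strand after replication with the help of UHRF1, and the TET enzymes oxidise them so that they are lost by dilution or by TDG and base excision repair. mESCs in 2i are known for low DNA methylation, and imprints are kept there by factors such as ZFP57. The RNA levels below say nothing about protein, enzyme activity or methylation, which were not measured in these libraries.

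The libraries held 21834847 and 17452307 counted reads for WT and 14207828 and 14436750 for Haspin-KO, so that 3 reads, the floor below which a gene was not taken as seen, stood for 0.137 to 0.210 CPM, the reads of a gene in every 1000000 counted reads after scaling by the TMM factors of edgeR. This floor covers counting error only. Haspin itself had 40.1 and 35.7 CPM in WT and 10.4 and 14.6 CPM in Haspin-KO, a log2 fold change of -1.60 ± 0.16 (SE, edgeR's quasi-likelihood test, adjusted p = 0.00154). In limma on log2(FPKM + 0.1), which called no gene at all, the log2 fold change was -1.59 (adjusted p = 0.115). Of 8 mESC markers, such as Dppa5a, all were seen in every library, 0 passed the test and 6 had lower estimates in Haspin-KO. In edgeR 2 of them, Klf4 and Dppa5a, had an unadjusted p under 0.05 (20.8% of all genes tested), both with lower estimates. The summed level of the 8 was 6116 and 6367 CPM in WT and 5802 and 5928 CPM in Haspin-KO. Of 12 tested feeder markers, 10 had lower estimates in Haspin-KO and 8 were called lower by edgeR at an adjusted p under 0.05 (1.51% of all genes tested). Among the 8 was the collagen gene Col1a2 with 29.5 and 24.2 CPM in WT and 0.487 and 0.490 CPM in Haspin-KO. Of the 15 listed feeder markers, 4 were at 0 in both Haspin-KO libraries and 1 of them in WT as well. The summed level of the list, most of it from Fn1, a fibronectin gene with high levels in both genotypes, was 2028 and 2059 CPM in WT and 1907 and 1868 CPM in Haspin-KO. Of 11 tested markers of 2-cell-like cells, a rare state of mESC cultures, all 11 had higher estimates in Haspin-KO and 6 were called higher (0.988% of all genes tested). The 6 were Zscan4a, Zscan4c, Zscan4d, Zscan4f, Usp17lb and Gm5662. Reads shared among the Zscan4 copies were not checked, so these copies may not count as separate markers. The summed level of this list was 77.5 and 70.8 CPM in WT and 197 and 148 CPM in Haspin-KO. The part of these cells in the members' values was not tested, and in bulk RNA fewer cells of a type and less RNA per cell cannot be told apart.

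With genotype as the only term, none of the 10 members passed the test between Haspin-KO and WT. At a Benjamini-Hochberg adjusted p under 0.05 in edgeR's quasi-likelihood test, 0 of 10 members were called, against 2.5% of all genes tested (0.988% higher and 1.51% lower in Haspin-KO), and 0.828% of genes had a fold change over 2 as well. An unadjusted p under 0.05 was reached in edgeR by 3 members, Dnmt3a, Dnmt3b and Tet1, all with higher estimates in Haspin-KO, where 20.8% of genes reached it (10.4% of genes with higher estimates). In DESeq2, 0 members passed the adjusted threshold (3.63% of 12813 genes did) and 1, Dnmt3b, had an unadjusted p under 0.05 (14.5% of genes). limma on log2(FPKM + 0.1) called none of 14817 genes at the adjusted threshold, so its count of 0 members says nothing about them, and 1 member, again Dnmt3b, had an unadjusted p under 0.05 (18.5% of genes). The 2 Haspin-KO libraries lay above both WT libraries for 3 members (Dnmt3a, Dnmt3b and Tet3; 25.3% of genes) and below both for 1 (Uhrf1; 26.9% of genes), together 4 of 10 against 52.3% of genes. The median log2 fold change of the members was 0.01, and that of all genes tested was 0.00 (-0.003857). Every 95% interval of a member in edgeR lay within a 2-fold change in either direction, from -0.61, the lower end for Dnmt3l, to 0.69, the upper end for Tet1. DESeq2 gave larger SEs for all 10 members, so these limits hold for edgeR only. Its SE was 0.34 for Dnmt3l, 0.29 for Tet1 and 0.27 for Zfp57, where edgeR gave 0.17, 0.14 and 0.14.

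**Figure D1:**
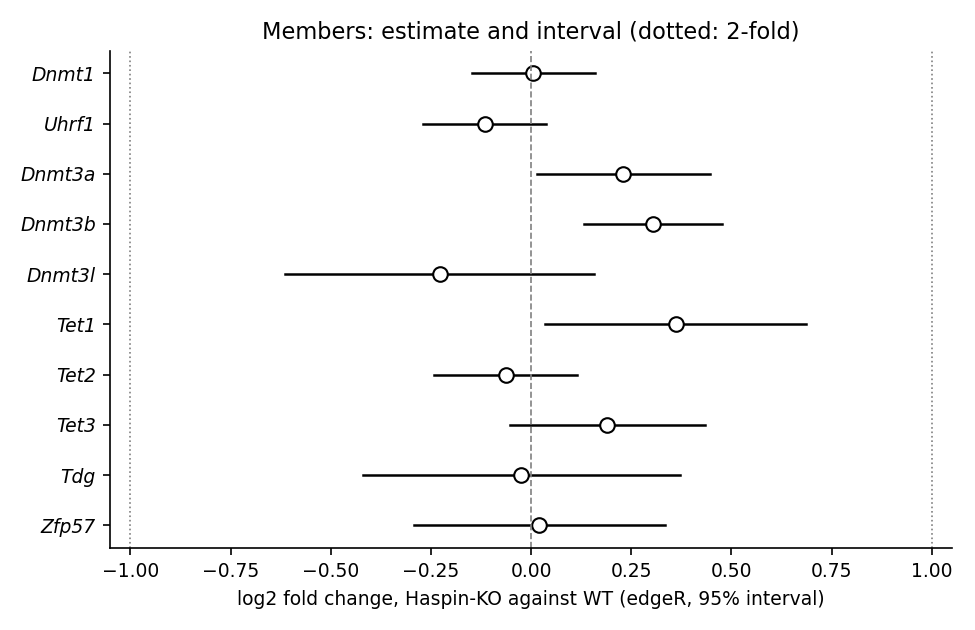
Log2 fold change of Haspin-KO against WT for each member from edgeR (circle, open where the adjusted p is 0.05 or more) with its 95% interval (line). All 10 circles are open, all intervals stay inside the dotted lines that mark a 2-fold change, and the intervals of Dnmt3a, Dnmt3b and Tet1 lie above 0.

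Dnmt1 (ENSMUSG00000004099, mm10 chr9:20907209-20959888, minus strand) encodes the methyltransferase that copies methylation at the replication fork. It had 438 and 436 CPM in WT and 424 and 453 CPM in Haspin-KO, and the Haspin-KO libraries lay on either side of the WT pair. The log2 fold change was 0.01 ± 0.07 (SE; 95% interval -0.15 to 0.16; edgeR adjusted p = 0.976), which limits the change to between -9.78% and 11.7%. It was the member with the closest agreement within WT, where the libraries differed by 0.0065 on the log2 scale. Uhrf1 (ENSMUSG00000001228, chr17:56303321-56323486, plus strand) encodes the protein that reads hemimethylated DNA and brings DNMT1 there. It had 745 and 762 CPM in WT and 669 and 721 CPM in Haspin-KO, so that both Haspin-KO libraries lay below both WT libraries. The estimate was -7.73% (log2 fold change -0.12 ± 0.07, 95% interval -0.27 to 0.04), and it did not pass the test (edgeR adjusted p = 0.368). Within each library the FPKM of Uhrf1, which is its CPM without TMM scaling per kilobase of exon, was 2.94 and 3.03 times that of Dnmt1 in WT and 2.73 and 2.76 times in Haspin-KO. These ratios did not overlap, with a log2 ratio lower by a mean difference of -0.12 in Haspin-KO (two-sided exact permutation p = 0.333, adjusted p = 0.667 over 6 ratios), and 0.333 is the smallest p that 2 libraries against 2 can give.

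The de novo group held the member with the smallest p. Dnmt3b (ENSMUSG00000027478, chr2:153649450-153687730, plus strand), a methyltransferase of early embryonic cells, had 130 and 121 CPM in WT and 151 and 158 CPM in Haspin-KO. Both Haspin-KO libraries lay above both WT libraries, by more than either genotype's libraries differed from each other. The mean was 125 ± 6.39 CPM in WT and 155 ± 4.89 CPM in Haspin-KO (SD, n = 2 each), a log2 fold change of 0.30 ± 0.08 (95% interval 0.13 to 0.48) or 23.5% more, with an edgeR unadjusted p of 0.00301 and an adjusted p of 0.0717. By its p, Dnmt3b stood at place 654 of 15580 genes, outside the 390 genes called. Over leaving out each library in turn the log2 fold change stayed between 0.26 and 0.35. Dnmt3a (ENSMUSG00000020661, chr12:3806007-3914443, plus strand), which encodes the other active de novo enzyme, had 48.3 and 49.4 CPM in WT and 53.4 and 61.3 CPM in Haspin-KO. Again both Haspin-KO libraries were the higher ones, with an estimate of 17.3% (log2 fold change 0.23 ± 0.10, 95% interval 0.01 to 0.45, edgeR adjusted p = 0.215).

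Dnmt3l (ENSMUSG00000000730, chr10:78041947-78063622, plus strand) encodes a cofactor of the de novo enzymes without catalytic activity of its own. It had 175 and 227 CPM in WT and 138 and 205 CPM in Haspin-KO, so the genotypes overlapped and each was spread widely. The log2 fold change was -0.23 ± 0.17 (95% interval -0.61 to 0.16, edgeR adjusted p = 0.482). This value rested on single libraries. Without Haspin-KO replicate 2 it was -0.55, and without Haspin-KO replicate 1 it was 0.03. The 5′ end of Dnmt3l overlaps Aire (chr10:78030022-78043610), a gene on the opposite strand with 9.61 and 19.8 CPM in WT and 6.61 and 15.0 CPM in Haspin-KO. Whether strand was used in counting is not stated, so reads of Dnmt3l and Aire in the overlap cannot be told apart. The library with the higher level was the same for both genes in each genotype.

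**Figure D2:**
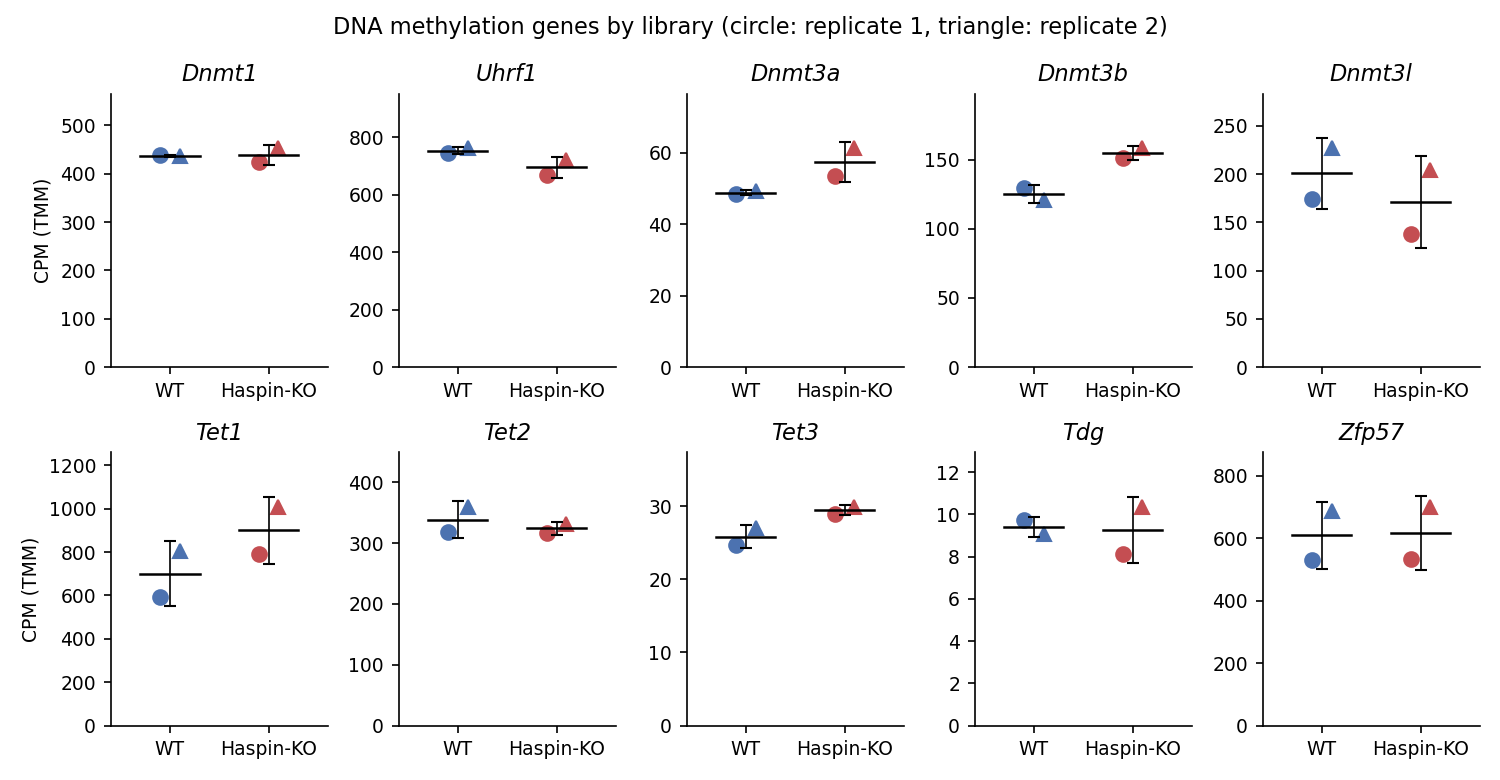
CPM with TMM scaling of each member in the 4 libraries (circle for replicate 1, triangle for replicate 2; blue for WT, red for Haspin-KO), with the mean (line) and SD (bar) of each genotype, on axes that start at 0. The Haspin-KO points of Dnmt3a, Dnmt3b and Tet3 lie above both WT points, those of Uhrf1 lie below them, and Dnmt3l, Tet1 and Zfp57 have widely spaced points in both genotypes.

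Within the Dnmt3 group, Dnmt3l made up the largest part of the summed FPKM in every library, 67.4% and 74.0% in WT and 58.4% and 66.4% in Haspin-KO, and the genotypes did not overlap. Dnmt3b made up 29.3% and 23.1% in WT and 37.5% and 30.0% in Haspin-KO. Dnmt3a made up 2.90% to 4.06% over all libraries. The FPKM of Dnmt3l was 20.1 and 25.6 times that of Dnmt3a in WT and 14.4 and 18.6 times in Haspin-KO, a difference of -0.47 in the mean log2 ratio (two-sided exact permutation p = 0.333, adjusted p = 0.667). The FPKM of Dnmt3b was 8.74 and 7.96 times that of Dnmt3a in WT and 9.24 and 8.42 times in Haspin-KO, and these overlapped (difference 0.08, exact permutation p = 0.667). The size of these multiples depends on the length used, which for Dnmt3a was 16642 bases of exon against 9685 of the principal transcript. With the latter length, the mean level was 28.9 for Dnmt3b and 5.03 for Dnmt3a in WT, and 35.8 and 5.92 in Haspin-KO.

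Tet1 (ENSMUSG00000047146, chr10:62804570-62908996, minus strand), the TET dioxygenase best known from mESCs, had the highest estimate of the members. It had 594 and 807 CPM in WT and 790 and 1009 CPM in Haspin-KO, and the lower Haspin-KO library fell just under the higher WT library. The mean was 701 ± 150 CPM in WT and 900 ± 155 CPM in Haspin-KO (SD, n = 2 each), a log2 fold change of 0.36 ± 0.14 (95% interval 0.04 to 0.69) or 28.4% more, with an edgeR unadjusted p of 0.0333 and an adjusted p of 0.200. The 2 WT libraries differed by 0.44 on the log2 scale and the 2 Haspin-KO libraries by 0.35, as much as the genotypes differed. Without Haspin-KO replicate 1 the log2 fold change was 0.53, and over leaving out each library in turn it ran from 0.15 to 0.60. With no filter on low counts it was 0.33 and passed the test (adjusted p = 0.00931, edgeR). That run called 448 genes higher and 724 lower of 28670 tested, against 154 higher and 236 lower of 15580 in the main fit.

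Tet2 (ENSMUSG00000040943, chr3:133463679-133545139, minus strand), the other TET enzyme with a high level in mESCs, had 318 and 360 CPM in WT and 316 and 332 CPM in Haspin-KO. The Haspin-KO libraries overlapped the WT range (log2 fold change -0.06 ± 0.08, 95% interval -0.24 to 0.12, edgeR adjusted p = 0.693). Tet3 (ENSMUSG00000034832, chr6:83362373-83459084, minus strand), known as the TET enzyme of the oocyte and zygote, had 24.7 and 26.9 CPM in WT and 29.0 and 29.9 CPM in Haspin-KO. Its Haspin-KO libraries both lay above the WT libraries, without passing the test (log2 fold change 0.19 ± 0.11, 95% interval -0.05 to 0.43, edgeR adjusted p = 0.349).

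Of the summed FPKM of the Tet genes, Tet1 made up 65.4% and 69.5% in WT and 71.4% and 75.3% in Haspin-KO. Tet2 made up 32.0% and 28.4% in WT and 26.2% and 22.7% in Haspin-KO, and for both genes the genotypes did not overlap. Tet3 made up 2.06% to 2.52%, and its genotypes overlapped. Tet2 stood at 0.490 and 0.409 times the FPKM of Tet1 in WT and at 0.367 and 0.301 times in Haspin-KO, a difference of -0.43 in the mean log2 ratio (two-sided exact permutation p = 0.333, adjusted p = 0.667). Neither Tet3 to Tet1 (difference -0.18) nor the sum of Dnmt1, Dnmt3a and Dnmt3b to the sum of the Tet genes (difference -0.14) was apart between the genotypes (exact permutation p = 0.667 for each). Leaving out each library in turn moved the former from -0.34 to -0.018, the smallest size without WT replicate 1 (-0.024 without Haspin-KO replicate 2), and the latter from -0.34 without WT replicate 2 to 0.052 without WT replicate 1. FPKM here uses the length of all exons of a gene, which is far above that of its principal transcript for Tet2 (16870 against 9179 bases) and Tet3 (16695 against 5944 bases). With the principal transcript's length, Tet1 made up 51.6% and 56.2% in WT and 58.3% and 63.0% in Haspin-KO, Tet2 43.2% and 39.2% in WT and 36.5% and 32.5% in Haspin-KO, and Tet3 4.52% to 5.19% over all libraries.

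**Figure D3:**
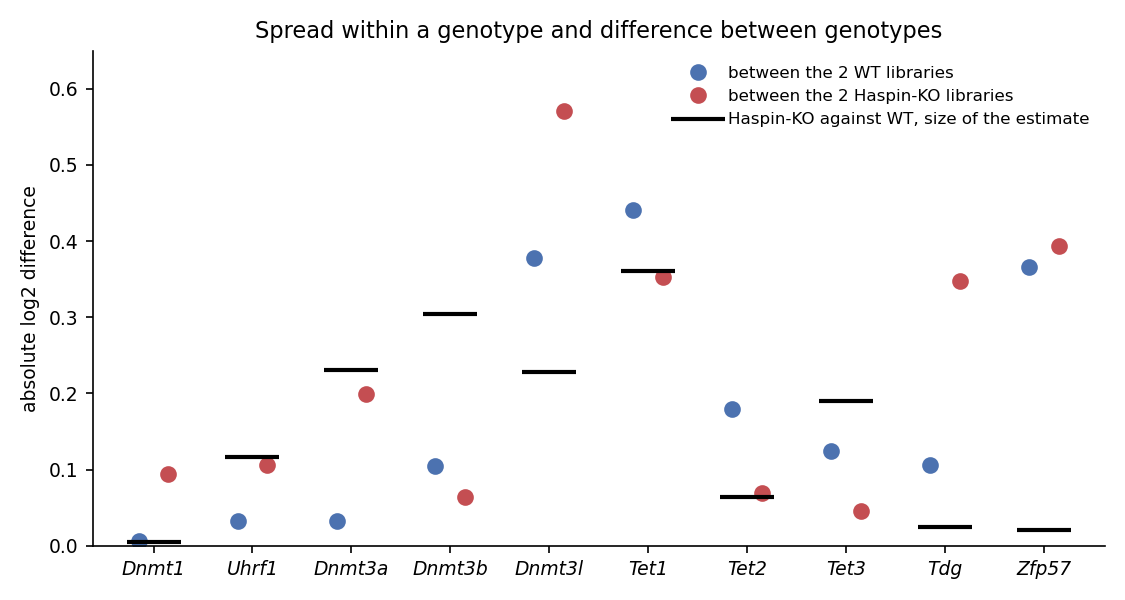
Absolute log2 difference in CPM between the 2 libraries of WT (blue) and of Haspin-KO (red) for each member, with the size of the estimate between genotypes (black line). The black line lies above both points for Dnmt3b, Dnmt3a, Tet3 and Uhrf1, below both for Dnmt1, Dnmt3l, Tet2, Tdg and Zfp57, and between them for Tet1.

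Zfp57 (ENSMUSG00000036036, chr17:37001163-37010635, plus strand) encodes a KRAB zinc finger protein that binds the methylated copy of imprinted control regions and keeps it methylated. It had 532 and 685 CPM in WT and 533 and 700 CPM in Haspin-KO, nearly the same pair of values in both genotypes. The log2 fold change was 0.02 ± 0.14 (95% interval -0.29 to 0.33, edgeR adjusted p = 0.955). The spread within a genotype was wide for Zfp57 (0.37 in WT and 0.39 in Haspin-KO on the log2 scale), for Tet1 and for Dnmt3l (0.38 and 0.57). Over the 2447 tested genes with a mean of at least 100 CPM, the median difference between the libraries was 0.0851 in WT and 0.0794 in Haspin-KO and 90% of genes lay under 0.223 and 0.206. Dnmt1, Uhrf1, Dnmt3b and Tet2 lay under these limits.

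The last eraser, Tdg (ENSMUSG00000034674, chr10:82629828-82650799, plus strand), encodes the glycosylase that cuts out the TET products 5-formylcytosine and 5-carboxylcytosine. Its transcripts share much of their sequence with processed copies elsewhere in the genome, so its reads cannot be assigned with certainty. Of all 100-base windows of the protein-coding transcripts of Tdg, 41.1% also occur in transcripts of another gene, above all in Tdg-ps (25.5%), Tdg-ps2 (17.6%) and Gm5597 (15.6%), and 7.04% in Glt8d2, which overlaps the 3′ end. For the other members the share was 6.57% for Uhrf1 (all in Gm5648), 5.22% for Dnmt3b (all in Dnmt3c), 0.104% for Tet1 and 0 for the remaining 6. The 150 bases below, coding bases 1024 to 1173 of the GENCODE transcript of Tdg in GRCm38 (mm10), are shown with the matching stretch of each copy. They were picked as the coding window of this length with the most differences between Tdg and Tdg-ps2. Other coding windows differ from Tdg-ps2 at as many positions or fewer. Capitals mark bases that differ from Tdg, 5 in Tdg-ps2 (chr10:42054113-42055306, minus strand), 5 in Tdg-ps (chr15:82516311-82519278, plus strand) and 3 in Gm5597 (chr7:76244746-76245938, minus strand).
Tdg: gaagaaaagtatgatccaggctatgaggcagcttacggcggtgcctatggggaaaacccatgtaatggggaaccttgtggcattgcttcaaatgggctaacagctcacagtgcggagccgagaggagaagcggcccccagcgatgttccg
Tdg-ps2: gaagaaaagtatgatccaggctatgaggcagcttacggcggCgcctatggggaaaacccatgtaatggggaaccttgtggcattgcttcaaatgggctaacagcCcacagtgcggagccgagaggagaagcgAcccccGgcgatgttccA
Tdg-ps: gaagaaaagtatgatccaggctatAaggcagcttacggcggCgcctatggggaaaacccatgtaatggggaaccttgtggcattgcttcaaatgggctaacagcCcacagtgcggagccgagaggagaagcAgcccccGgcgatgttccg
Gm5597: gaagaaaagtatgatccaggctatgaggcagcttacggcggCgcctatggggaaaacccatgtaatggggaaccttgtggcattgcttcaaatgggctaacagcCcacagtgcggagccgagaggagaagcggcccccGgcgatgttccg

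Over its whole length Tdg-ps2 had 9 mismatches to Tdg in 1194 aligned bases (99.2% identity), Tdg-ps had 39 in 2968 (98.7%) and Gm5597 had 8 in 1193 (99.3%). Tdg had 9.75 and 9.06 CPM in WT and 8.15 and 10.4 CPM in Haspin-KO, and the genotypes overlapped (log2 fold change -0.02 ± 0.18, 95% interval -0.42 to 0.37, edgeR adjusted p = 0.956). Tdg-ps2 had 50.3 and 56.2 CPM in WT and 55.0 and 59.6 CPM in Haspin-KO (log2 fold change 0.11 ± 0.10, edgeR adjusted p = 0.557). More reads were thus assigned to the copy than to Tdg in every library. Tdg-ps had 3 and 0 reads in WT and 1 and 2 in Haspin-KO, and Gm5597 had 3 and 3 reads in WT and 1 and 4 in Haspin-KO. With the 3 copies added, which was chosen after the data were seen, the sum was 60.3 and 65.4 CPM in WT and 63.3 and 70.4 CPM in Haspin-KO. Reads assigned to Tdg made up 16.2% and 13.8% of this sum in WT and 12.9% and 14.7% in Haspin-KO. The log2 fold change of the sum was 0.09 ± 0.09 (95% interval -0.12 to 0.30, edgeR adjusted p = 0.624), so the estimate changed sign from that of Tdg alone and neither passed the test. The low place of Tdg among the members described next holds only for reads assigned to Tdg itself. The copies that share sequence with other members had few reads: Dnmt3c, a de novo enzyme of the male germline, had 1 and 2 reads in WT and 1 and 2 in Haspin-KO, and Gm5648 had 0 to 2. The antisense genes Dnmt3aos and Dnmt3bos had 0 to 2 and 0 to 3 reads.

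**Figure D4:**
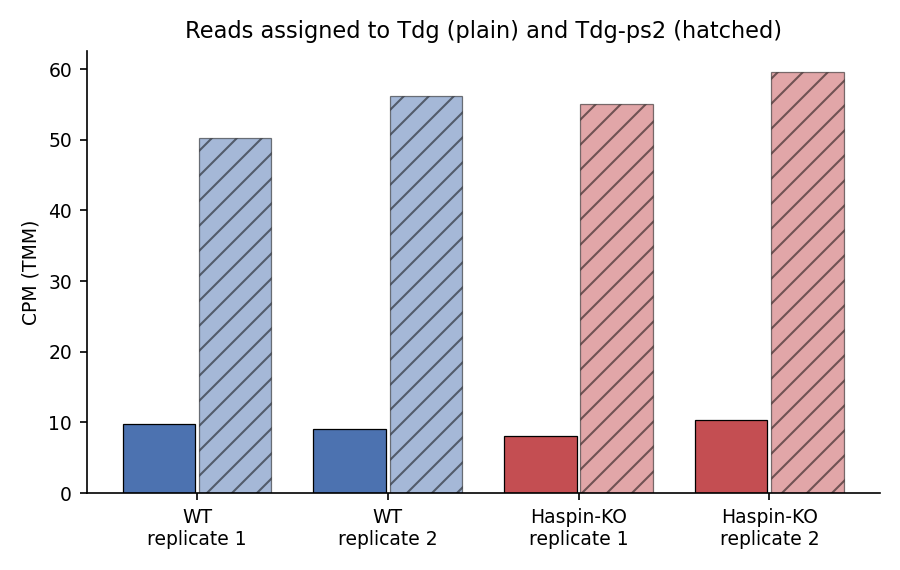
CPM assigned to Tdg (plain bars) and to its processed copy Tdg-ps2 (hatched bars) in the 4 libraries, WT in blue and Haspin-KO in red, on an axis that starts at 0. The bars of Tdg lie between 8.15 and 10.4 CPM and those of Tdg-ps2 between 50.3 and 59.6 CPM.

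Compared per length of exon, the members spanned a wide range. In WT the mean FPKM was 176 ± 1.94 for Uhrf1, 160 ± 27.8 for Zfp57, 66.9 ± 12.0 for Dnmt3l, 59.1 ± 0.488 for Dnmt1, 45.2 ± 9.46 for Tet1, 24.5 ± 1.37 for Dnmt3b, 20.0 ± 1.66 for Tet2, 2.93 ± 0.028 for Dnmt3a, 1.75 ± 0.106 for Tdg and 1.54 ± 0.085 for Tet3 (SD, n = 2). Neighbours in this order overlapped for Uhrf1 and Zfp57 and for Dnmt3l and Dnmt1, and the other neighbours were apart. In Haspin-KO the order was Uhrf1 (163 ± 5.98), Zfp57 (163 ± 28.7), Dnmt1 (59.4 ± 1.82), Tet1 (58.1 ± 9.11), Dnmt3l (57.2 ± 14.9), Dnmt3b (30.3 ± 0.495), Tet2 (19.2 ± 0.361), Dnmt3a (3.44 ± 0.283), Tet3 (1.76 ± 0.014) and Tdg (1.72 ± 0.269). Here Uhrf1 and Zfp57, Dnmt1 and Tet1, Tet1 and Dnmt3l, and Tet3 and Tdg overlapped. Per length of the principal transcript, Zfp57 stood above Uhrf1 in both genotypes, Tet2 above Dnmt3b in WT and Tet3 above Tdg in both. Dnmt3l stood above Dnmt1 by this measure in both genotypes.

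CpG pairs, the substrate of these enzymes, were counted in the members' own start regions as a feature the choice of genes did not use. RefSeq start regions of 300 bases (250 before and 50 after the start, GRCm38.p6) were at hand for all 10 members, 19 regions in all, and over 32851 such regions of the genome the median was 7 CpG pairs. Dnmt3l (3 to 6 pairs) lay under the median in all its regions, and Zfp57 had 4, 6 and 9 pairs. Tet1 had 17, Tet3 22, Tdg 26, Dnmt3b 30 and Tet2 57 pairs, as many as were reached by 31.4%, 23.1%, 16.9%, 11.7% and 0.152% of all regions. Dnmt3a had 18, 46 and 47 pairs at 3 starts, Uhrf1 12 and 33 at 2, and Dnmt1 2, 12 and 33 at 3. All regions of Dnmt3a, Dnmt3l, Tet1, Tet2 and Tet3 lie inside the gene spans given above. Their RefSeq starts are thus downstream of the outermost 5′ end of the gene. A CpG-rich and a CpG-poor case are shown, 5′ to 3′ with CpG pairs in capitals. They are the 250 bases before the RefSeq start of Dnmt3b (chr2:153649199-153649448, plus strand, 21 pairs) and before the outermost RefSeq start of Dnmt3l (chr10:78042037-78042286, plus strand, 5 pairs). No methylation was measured on them here.
Dnmt3b: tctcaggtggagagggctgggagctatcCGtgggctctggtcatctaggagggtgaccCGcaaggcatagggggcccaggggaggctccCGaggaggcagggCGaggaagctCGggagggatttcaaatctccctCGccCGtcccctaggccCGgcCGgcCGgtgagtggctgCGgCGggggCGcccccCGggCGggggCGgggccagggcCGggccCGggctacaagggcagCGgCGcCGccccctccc
Dnmt3l: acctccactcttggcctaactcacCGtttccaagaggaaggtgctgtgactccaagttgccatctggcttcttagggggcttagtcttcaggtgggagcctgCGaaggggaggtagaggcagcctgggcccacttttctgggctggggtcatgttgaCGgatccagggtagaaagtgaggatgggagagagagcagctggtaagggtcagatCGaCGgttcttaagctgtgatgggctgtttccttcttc

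The wider machinery was described with 6 lists of 60 genes, of which 59 were in the table and 56 were tested. Across them 1 gene, Idh2, passed the test, lower in Haspin-KO, and 0 were called higher by edgeR (2.5% of all genes were called). An unadjusted p under 0.05 was reached in edgeR by 12 of 56 genes, against 20.8% of all genes. Estimates were higher in Haspin-KO for 30 and lower for 26, libraries did not overlap for 30 (18 higher, 12 lower; 52.3% of all genes), and the median log2 fold change was 0.00 (0.004945). Of the genes not tested, Dnmt3c is named above, and Cxxc4 had at most 0.279 CPM in any library.

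Idh2 encodes the mitochondrial isocitrate dehydrogenase that forms 2-oxoglutarate, the co-substrate of TET enzymes. It had 145.0 and 145.1 CPM in WT and 115 and 114 CPM in Haspin-KO, with both genotypes tightly spaced and apart. The log2 fold change was -0.34 ± 0.07 (SE, edgeR adjusted p = 0.0437). In DESeq2, which called 3.63% of 12813 genes, it was -0.35 (adjusted p = 0.0210). In limma on log2(FPKM + 0.1), which called no gene at all, it was -0.34 (adjusted p = 0.120). The edgeR call was lost when any 1 library was left out (edgeR adjusted p = 0.181 and 0.140 without WT replicate 1 and 2, and 0.0633 and 0.0630 without Haspin-KO replicate 1 and 2), while the log2 fold change stayed between -0.35 and -0.34. The other 8 genes of this list, on methyl donors and 2-oxoglutarate, did not pass the test. Their estimates reached up to 0.14 for Mat2b, a subunit of the enzyme that makes the methyl donor S-adenosylmethionine, and the gene of its catalytic subunit, Mat2a, had the highest FPKM of the list (log2 fold change 0.06 ± 0.09). The list's median was 0.06.

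**Figure D5:**
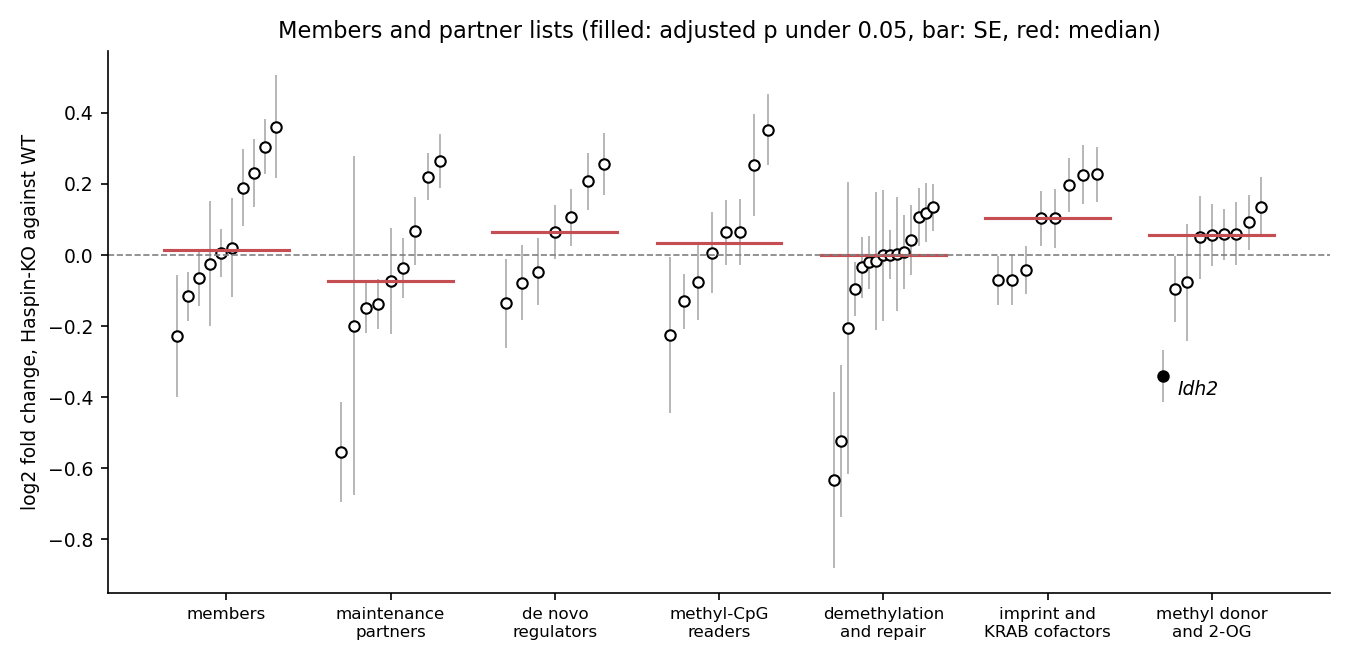
Log2 fold change of Haspin-KO against WT for the 10 members and the 56 tested genes of the 6 lists (circles, filled where the edgeR adjusted p is under 0.05), with SE (grey bars) and the median of each list (red line). Idh2 is the only filled circle, and the medians lie between -0.07 and 0.10.

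Among the 9 partners of maintenance, 0 passed the test, 3 had higher and 6 lower estimates, and the median was -0.07. Hells, a chromatin remodeller needed for methylation of heterochromatin, had 444 and 484 CPM in WT and 536 and 580 CPM in Haspin-KO (log2 fold change 0.27 ± 0.08, edgeR adjusted p = 0.0952). Pclaf, a PCNA-associated factor that takes part in recruiting DNMT1, had 25.3 and 32.6 CPM in WT and 19.1 and 20.2 CPM in Haspin-KO (log2 fold change -0.55 ± 0.14, edgeR adjusted p = 0.0740). Both were apart between the genotypes, in opposite directions. Pcna, the sliding clamp of replication, had the highest FPKM of the list (log2 fold change -0.14 ± 0.07).

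Of the 7 tested regulators of de novo methylation, 0 passed, with 4 higher and 3 lower estimates and a median of 0.06. Nsd1, which writes the H3K36 dimethylation that DNMT3A binds, had 423 and 490 CPM in WT and 518 and 572 CPM in Haspin-KO (log2 fold change 0.26 ± 0.09, edgeR adjusted p = 0.143) and also the highest FPKM. Prdm14, a repressor of the de novo enzymes in naive cells, had the lowest estimate (-0.14 ± 0.13). Of 8 genes listed with the readers of methylated CpG, 0 passed and the median was 0.04. Zbtb38, a zinc finger reader, had 51.6 and 48.3 CPM in WT and 68.7 and 59.0 CPM in Haspin-KO (log2 fold change 0.35 ± 0.10, edgeR adjusted p = 0.0936), Zbtb4 had the lowest estimate (-0.23 ± 0.22), and Mbd3, of the NuRD complex, had the highest FPKM (log2 fold change -0.13 ± 0.08).

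Of the 15 tested genes of demethylation and base excision repair, 0 passed, with 7 higher and 8 lower estimates and a median of 0.00 (-0.001114). Ogt, the O-GlcNAc transferase that binds TET proteins, had the highest estimate (0.13 ± 0.07), and Parp1, with the highest FPKM, had 790 and 827 CPM in WT and 781 and 838 CPM in Haspin-KO. Neil2, a glycosylase of the repair pathway, had the lowest estimate (-0.63 ± 0.25, edgeR adjusted p = 0.190) at 5.95 and 9.34 CPM in WT and 5.01 and 4.76 CPM in Haspin-KO. Of the 8 cofactors of imprint control and KRAB zinc finger proteins, 0 passed, 5 had higher and 3 lower estimates, and the median was 0.10. Zfp445, the KRAB zinc finger protein that acts beside ZFP57 at imprints, had 125 and 136 CPM in WT and 150 and 156 CPM in Haspin-KO (log2 fold change 0.23 ± 0.08, edgeR adjusted p = 0.143). Trim28, the corepressor that ZFP57 recruits, had 1937 and 1810 CPM in WT and 1728 and 1839 CPM in Haspin-KO, which overlapped (log2 fold change -0.07 ± 0.07, edgeR adjusted p = 0.601). Cbx1, a heterochromatin protein, had an estimate of -0.07 ± 0.07.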

How the data were processed

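RNA-seq of 2 WT and 2 Haspin-KO E14 mESC libraries was used, grouped by genotype as given in the sample labels. Libraries were prepared with the SMARTER mRNA-Seq kit from TRIzol RNA. According to the submitters' processing notes, cutadapt (1.9.1), HISAT2 (2.0.1), HTSeq (0.6.1), DESeq2 and mm10 were used. Not given in the sources used here are the strand setting, the annotation release and how reads with several matches were counted. The authors deposited raw counts per gene, not normalized, and FPKM values, which equalled the counts divided by exonic length and library total in 100% of values within rounding. The authors' functional annotation columns were not used. Of the genes listed, 99.353% had the same position in GENCODE M21 (GRCm38).

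The counts of the whole table were tested in R (4.3.3) with edgeR (4.0.16), its filter on low counts, TMM scaling and the quasi-likelihood test with group as the only term. Library totals ran from 14207828 to 21834847 counts, and 2 libraries per genotype limit the precision, as the intervals given show. p-values were adjusted by Benjamini-Hochberg over all 15580 genes tested. SE was taken as the size of the log2 fold change over the root of its F statistic, and intervals are at 95%. The fit had 2 residual and 7.419 prior degrees of freedom, so most of the weight in a gene's variance came from the other genes. Ratios between members were compared by exact permutation over libraries. Alternatives were DESeq2 (1.42.0), other scaling and filters, limma (3.58.1) on log2(FPKM + 0.1) or log2(FPKM + 1) for genes that reached an FPKM of 0.5 in 2 libraries or more, the replicate number as a block, and each library left out, where the lone library is assumed to vary like the other genotype's pair. Summing Tdg with its copies and the length of the principal transcript were chosen after the data were seen. On simulated data with 200 changed genes among 15580, edgeR found 76% of those changed by 1 and 93% of those changed by 2 on the log2 scale, with 18 false calls. Changes as small as the members' estimates, of which the largest was 0.36, were not simulated, so these shares do not apply to them. Shared sequence was searched as 100-base windows in GENCODE transcripts, not in the genome.

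The members and the gene lists were chosen with earlier results of these data known. All 10 members are named, and of each list the called genes, the highest and lowest estimate and the highest FPKM.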

Additional observations from a re-analysis of the deposited data

How the results depend on the processing

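Under DESeq2, other scaling and a minimum of 10 counts in every library, the 10 members kept the direction and side of the threshold of their estimates, and under limma they kept the direction. With no filter on low counts, Tet1 passed the test (0.33, edgeR adjusted p = 0.00931), and Dnmt1 (-0.023) and Zfp57 (-0.0068) changed sign. In this run 448 genes were called higher and 724 lower of 28670 tested, among them 1 member and 3 partner genes. limma called 0 genes higher, 0 lower and 0 partner genes with either pseudocount. The sum of Tdg and its copies changed sign (0.089). The mean log2 ratio of the Dnmt sum to the Tet sum changed sign without WT replicate 1, and over leaving out each library its difference ran from -0.34 to 0.052. The other 5 ratios kept their direction in every alternative run, with ranges over the libraries left out of -0.14 to -0.10 for Uhrf1 to Dnmt1, 0.014 to 0.15 for Dnmt3b to Dnmt3a, -0.66 to -0.28 for Dnmt3l to Dnmt3a, -0.57 to -0.29 for Tet2 to Tet1 and -0.34 to -0.018 for Tet3 to Tet1. The cause of these changes was not tested.

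Over leaving out each library in turn, the log2 fold change ran from -0.046 to 0.054 for Dnmt1, -0.17 to -0.06 for Uhrf1, 0.12 to 0.33 for Dnmt3a, 0.26 to 0.35 for Dnmt3b, -0.55 to 0.032 for Dnmt3l, 0.15 to 0.60 for Tet1, -0.16 to 0.030 for Tet2, 0.12 to 0.25 for Tet3, -0.21 to 0.14 for Tdg and -0.19 to 0.22 for Zfp57. The genes called ran from 33 to 446 higher and from 61 to 432 lower, the members called from 0 to 1 and the partner genes called from 0 to 3. The lowest counts of genes called came without WT replicate 1 (35 higher, 61 lower) or WT replicate 2 (33 higher, 69 lower).

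With the replicate number as a block, edgeR called 4 members, Dnmt3a (0.23, adjusted p = 0.0211), Dnmt3b (0.30, adjusted p = 4.262e-05), Dnmt3l (-0.24, adjusted p = 0.00123) and Tet1 (0.37, adjusted p = 1.374e-07), with 13 partner genes. Of the 15580 genes tested, it called 1775 higher and 1739 lower. The labels give a number but not what it stands for. This fit leaves 1 residual degree of freedom, and its prior degrees of freedom were infinite. The spread used in each gene's test thus came from all genes together and not from its own libraries. Between the replicate differences of WT and Haspin-KO the correlation over genes was 0.339, from only 2 pairs, and replicate 2 was over 1.2 times replicate 1 in both genotypes for 4.53% of genes and 3 members, Dnmt3l, Tet1 and Zfp57, a limit chosen after their values were seen.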
